A study of Mus musculus with 6 samples.

Results

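Transcripts used as markers of inflammatory Ly6C-high monocytes were followed in infarct tissue of male mice, taken 4 days after the left anterior coronary artery was tied off for good. The 7 genes are Ly6c2, Plac8, Ccr2, Chi3l3, Lyz2, Lyz1 and Itgam, chosen by name as markers of these cells; Chi3l3 is the older symbol of Chil3. All 7 are among the 12969 genes of the deposited table, and all 7 averaged 1 RPKM or more, the level required for testing, as did 12913 genes in all. RPKM is the number of reads scaled to gene length and library depth. The 6 libraries form 2 groups of 3: mice with the genotype Irf3-/-, written Irf3KO or knockout here, and WT mice of strain C57BL/6. All mice were about 12 weeks old and all carried an infarct; the sources used here do not give a strain for the knockout animals. The labels name no cell type for the deletion and do not say whether each library came from 1 animal, so p-values measure the spread between these libraries only.

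Inflammatory monocytes leave the bone marrow through the chemokine receptor CCR2, enter injured heart muscle in the first days after a coronary occlusion, and there mature into macrophages while losing the surface protein Ly6C. Type I interferon, whose production the transcription factor IRF3 helps to start, acts on these cells and switches on a set of antiviral genes in them. None of the 7 transcripts belongs to monocytes alone. Ly6c2 and Plac8 are also read in lymphocytes and plasmacytoid dendritic cells, Itgam and Lyz2 in neutrophils and macrophages, and Chi3l3 in alternatively activated macrophages. In bulk tissue, fewer cells of a type and less RNA per cell cannot be told apart.

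Library depth, recovered from the steps between low values, ran from about 14800000 to 61900000 reads in genes, the deepest being knockout replicate 3. Knockout replicate 2 stood apart, with a mean correlation of 0.907 with the other 5 libraries against 0.941 to 0.966 for those 5. Irf3 itself was read at 7.40, 8.74 and 7.68 RPKM in the knockout and at 13.76, 13.87 and 11.56 RPKM in WT libraries, without overlap (log2 fold change -0.65 ± 0.18, limma adjusted p = 0.344). Transcript from the locus was thus still read in every knockout library, and the sources used here do not say which exons were deleted. Cardiomyocyte genes summed to 17180 to 27100 RPKM in the knockout, highest in replicate 2, and to 7962 to 22020 RPKM in WT libraries. All 20 genes of a pan-leukocyte list were read, their mean log2(RPKM + 1) running from 4.84 in knockout replicate 2 to 5.96 in wild-type replicate 1. The groups overlapped in this leukocyte level, which differed by -0.07 between their means (knockout minus wild type, exact permutation test, two-sided, p = 0.9). With 3 libraries against 3 this exact permutation test cannot go below p = 0.1.

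Several of the markers have near-identical copies, which bears on how reads are assigned. The sequence upstream of Ly6c2 is shown beside that of its copy Ly6c1, because reads on the pair have to be divided between them. Each run holds the 250 bases before the annotated start, 5′ to 3′, from RefSeq on GRCm38.p6, and capitals mark a match to GAGGAAGT, the PU.1 motif used here. Both genes lie on the minus strand, and the stretches shown are chr15:75111972-75112221 for Ly6c2 and chr15:75048838-75049087 for Ly6c1.
Ly6c2: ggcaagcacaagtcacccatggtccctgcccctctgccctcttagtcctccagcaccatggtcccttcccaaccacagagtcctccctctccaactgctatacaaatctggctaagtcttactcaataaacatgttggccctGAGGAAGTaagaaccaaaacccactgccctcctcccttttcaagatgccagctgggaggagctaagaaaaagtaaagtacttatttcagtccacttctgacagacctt
Ly6c1: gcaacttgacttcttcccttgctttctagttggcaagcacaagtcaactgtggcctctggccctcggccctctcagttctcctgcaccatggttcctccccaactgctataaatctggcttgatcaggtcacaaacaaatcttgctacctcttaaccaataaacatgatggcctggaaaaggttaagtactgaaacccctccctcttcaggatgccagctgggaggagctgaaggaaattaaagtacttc
Aligned, the stretches were identical at 164 of 216 positions, or 75.9%, and the longest annotated transcripts at 97.6%. Of all 50-base words in the longest Ly6c2 transcript, 33.0% also occurred in transcripts of other genes, Ly6c1 and Ly6a among them. The sources used here do not say whether reads that fit several genes were dropped or assigned, so the split between Ly6c2 and Ly6c1 is uncertain.

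Lyz1 and Lyz2 form a second pair, side by side on chromosome 10, and their upstream bases are shown because the share of Lyz1 in the pair varied widely between libraries. The windows lie on the minus strand at chr10:117292869-117293118 for Lyz1 and chr10:117282273-117282522 for Lyz2, and neither held any of the motifs searched.
Lyz1: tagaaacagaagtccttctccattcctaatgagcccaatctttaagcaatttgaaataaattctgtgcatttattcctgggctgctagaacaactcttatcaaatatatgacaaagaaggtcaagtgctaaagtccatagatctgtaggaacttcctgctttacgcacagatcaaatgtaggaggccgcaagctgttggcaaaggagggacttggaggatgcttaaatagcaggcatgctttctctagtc
Lyz2: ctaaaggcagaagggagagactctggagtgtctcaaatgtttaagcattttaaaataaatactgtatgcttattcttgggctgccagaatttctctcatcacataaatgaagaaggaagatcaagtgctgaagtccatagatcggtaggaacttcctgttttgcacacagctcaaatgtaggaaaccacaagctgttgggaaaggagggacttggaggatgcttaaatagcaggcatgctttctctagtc
These stretches were identical at 80.6% of aligned positions and the longest transcripts at 96.0%. Shared 50-base words made up 16.1% of the Lyz1 transcript and 15.4% of the Lyz2 transcript. For Chi3l3 the share was 29.4%, with Chil4, which is not analysed here, and the gene model Gm6522. For Itgam it was 72.4%, all with the gene model Gm49368. The Plac8 transcript shared no 50-base word with another gene, and its upstream stretch on the minus strand at chr5:100572206-100572455 is shown because Plac8 had the smallest p of the members.
Plac8: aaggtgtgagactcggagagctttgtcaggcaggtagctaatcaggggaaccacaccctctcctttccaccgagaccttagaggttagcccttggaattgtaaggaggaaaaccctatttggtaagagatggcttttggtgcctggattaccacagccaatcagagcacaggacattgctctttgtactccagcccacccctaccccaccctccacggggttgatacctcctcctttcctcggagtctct
No match to the interferon-stimulated response element (ISRE) was found on either strand in the 300-base windows (250 bases before to 50 after each start) of the members and Ly6c1, a motif that 3.44% of 32851 promoters hold. GAGGAAGT, held by 3.2% of promoters, occurred 108 bases before the first Ly6c2 start and again 27 bases after it. In Ly6c1 it was found once, 127 bases before a second annotated start. That match begins after the first Ly6c1 start and runs past the end of the first window, so it was not counted there. Chi3l3 held 1 match to TTCNNNGAA, the GAS element, held by 8.3% of promoters, 172 bases before its start. No window held TTGCNNCAA, the C/EBP motif, held by 2.08%. A match describes letters only.

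No member passed the test across all genes. With limma on log2(RPKM + 1) and Benjamini-Hochberg adjustment, 0 of the 7 were called at an adjusted p under 0.05, where 0.503% of the 12913 genes were called (65 genes, 46 of them lower and 19 higher in the knockout). At an unadjusted p under 0.05 there were 2 members, where 8.4% of genes passed in either direction; both stood lower in the knockout, where 5.96% of genes did. The same 2 had a log2 fold change below -1, as 1.86% of genes had, and 5 members were below 0, as 59.3% of genes were. These were Ly6c2 and Plac8, which were also the 2 members whose knockout libraries all lay below all wild-type libraries, as 11.8% of genes did. No member had all knockout libraries above the wild type, as 6.61% of genes had, and the other 5 overlapped. The median log2 fold change of the members was -0.42, against -0.09 over all genes tested, and it was 0.23 without knockout replicate 2. With libraries weighted unequally, limma's array weights called all 7 members by the default method, which did not converge, and 3 (Plac8, Chi3l3 and Lyz1) by a gene-by-gene method run after that, with 8193 and 2960 genes called in all and most of the knockout weight on replicate 3.

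**Figure D1:**
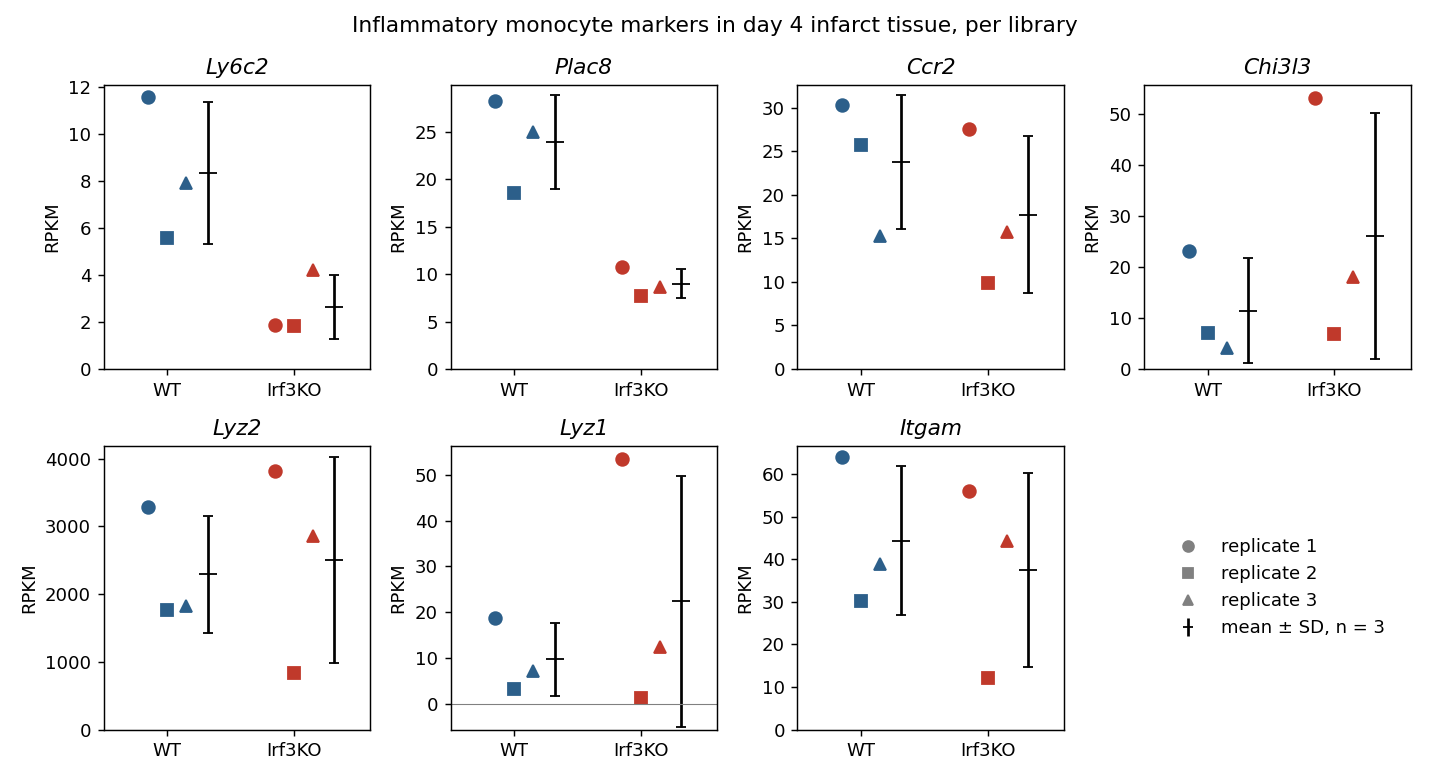
RPKM of each member in each library, with wild type (WT) in blue, knockout (Irf3KO) in red, the marker shape giving the replicate number, and the bar giving mean ± SD of 3 libraries. Ly6c2 and Plac8 separate the genotypes, whereas knockout replicate 2 is the lowest library for every member other than Chi3l3.

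Ly6c2 encodes a small protein held at the cell surface by a lipid anchor and is one of the genes behind the Ly6C antigen by which these monocytes are sorted. It was read at 1.87, 1.81 and 4.22 RPKM in knockout replicates 1 to 3 and at 11.58, 5.56 and 7.91 RPKM in wild-type replicates 1 to 3. All knockout values lay below all wild-type values, with knockout replicate 3 and wild-type replicate 2 the closest. The means were 2.63 ± 1.37 and 8.35 ± 3.03 RPKM (SD, n = 3 per group), a ratio of 3.17. On the log2 scale the fold change was -1.38 ± 0.32 (SE), with a 95% interval from -2.12 to -0.63 (limma adjusted p = 0.203). The lowest values rest on 22 and 26 reads, in knockout replicates 1 and 2. Counting error alone leaves 3.67 to 4.83 RPKM for knockout replicate 3 and 4.48 to 6.82 RPKM for wild-type replicate 2 (exact 95% Poisson intervals, which overlap). These intervals cover counting error only.

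Ly6c1, the copy that endothelial cells also express, showed no such split. It stood at 94.39, 95.37 and 96.63 RPKM in the knockout and at 72.14, 88.19 and 112.85 RPKM in WT libraries; the log2 fold change was 0.09 ± 0.22, with a limma adjusted p of 0.852. The knockout libraries were close to each other and lay within the wild-type range. Of the reads on the pair, Ly6c2 held 1.84%, 1.77% and 3.97% in the knockout and 13.2%, 5.64% and 6.23% in the wild type. The groups did not overlap in this share, and the exact permutation test gave p = 0.1, the smallest it can give. When the reads of both genes were summed, the log2 fold change was 0.00 ± 0.20 (limma adjusted p = 0.997), Ly6c1 supplying most of that sum.

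**Figure D2:**
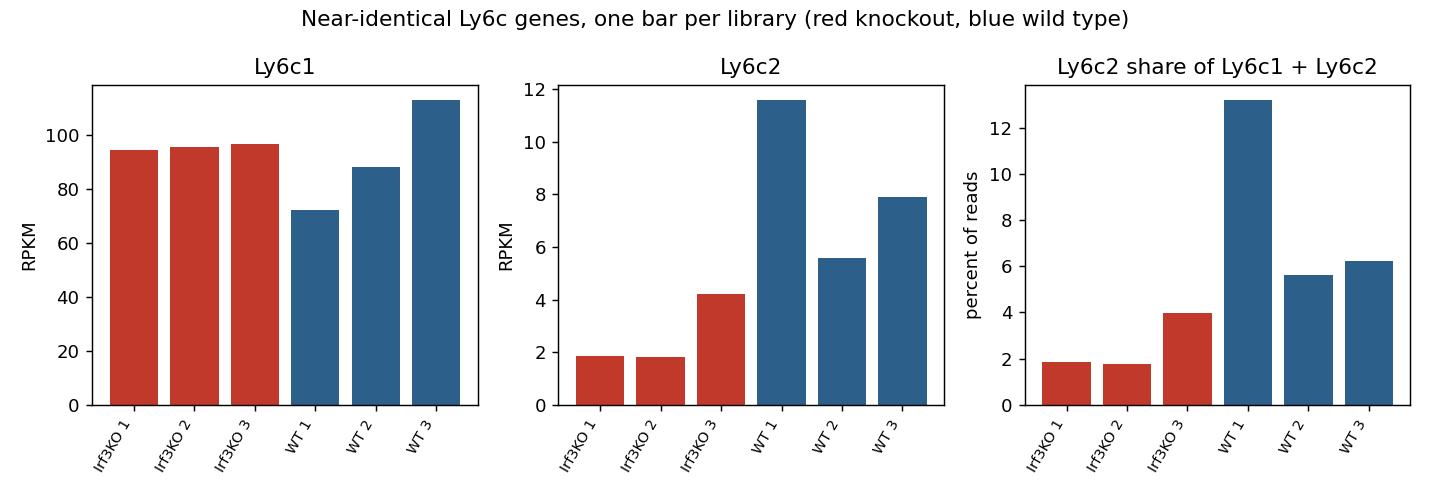
RPKM of Ly6c1 and Ly6c2, and the percentage of the pair's reads that fell on Ly6c2, with 1 bar per library. Ly6c1 is between 72.14 and 112.85 RPKM everywhere, while the Ly6c2 share is at most 3.97% in the knockout and at least 5.64% in the wild type.

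The other members of the Ly6 family in the table, also small surface or secreted proteins, differed among themselves. Ly6a, the stem cell antigen Sca-1, stood at 111.58, 83.03 and 99.03 RPKM in the knockout and at 132.39, 119.76 and 163.20 RPKM in WT libraries (log2 fold change -0.49 ± 0.23, limma adjusted p = 0.556). Ly6e had 158 to 185 RPKM in the knockout and 191 to 290 RPKM in WT libraries (-0.41 ± 0.25, adjusted p = 0.556), again with no overlap. Gpihbp1, which carries lipoprotein lipase across capillary endothelium, went the other way, with 56.7 ± 5.44 against 35.8 ± 0.517 RPKM (SD, n = 3 each), a log2 fold change of 0.65 ± 0.18 (adjusted p = 0.345, limma). Ly6d was low and overlapped, at 1.12 to 3.74 RPKM in the knockout and 0.92 to 4.33 RPKM in WT libraries. None of these 5 genes was called, Ly6c1 included.

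Plac8 encodes a small cysteine-rich protein that is abundant in monocytes fresh from the blood. Its values were 10.74, 7.67 and 8.60 RPKM in the knockout and 28.25, 18.52 and 25.02 RPKM in WT libraries. The groups were far apart for their spread, the highest knockout value being well under the lowest wild-type value, and the Poisson intervals of those libraries (9.46 to 12.1 and 17.1 to 20.1 RPKM) did not meet. The means were 9.0 ± 1.57 and 23.9 ± 4.96 RPKM (SD, n = 3 per group), a ratio of 2.66. For Plac8 the log2 fold change was -1.31 ± 0.22 (SE), with a 95% interval from -1.82 to -0.80, and the limma adjusted p of 0.0625 missed the threshold. Plac8 ranked 68 of 12913 genes by p. Its log2 fold change was -1.21 ± 0.20 without knockout replicate 2 (adjusted p = 0.0663).

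Ccr2 encodes the receptor for the chemokines that call monocytes out of the marrow and into tissue. It was read at 27.55, 9.86 and 15.79 RPKM in the knockout and at 30.31, 25.78 and 15.24 RPKM in WT libraries. Knockout replicate 1 was as high as the upper wild-type libraries, and wild-type replicate 3 was as low as knockout replicate 3. The log2 fold change of -0.46 ± 0.38 had a 95% interval from -1.34 to 0.41 (limma adjusted p = 0.588), which leaves room for a level 2.53 times lower or 1.33 times higher. Without knockout replicate 2 the log2 fold change was -0.13 ± 0.33. Whether Ccr2 differed in its response from Ly6c2 and Plac8 was not tested.

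Ligands that act on CCR2 were measured in the same libraries, together with other recruitment factors. Of 7 recruitment and survival factors in the table, 0 were called by limma. There were 2 with an unadjusted p under 0.05, both lower in the knockout, as 5.96% of all genes were. Ccl12 stood at 15.73, 14.00 and 11.55 RPKM in the knockout and at 31.47, 25.35 and 25.94 RPKM in WT libraries (log2 fold change -0.96 ± 0.20, limma adjusted p = 0.118). Ccl8 stood at 26.06, 37.43 and 26.10 against 98.48, 38.22 and 61.13 RPKM (-1.03 ± 0.34, adjusted p = 0.487). Neither overlapped between the groups, though for Ccl8 the nearest libraries almost touched. Ccl2, the main ligand of CCR2, overlapped at 27.9 ± 7.57 against 32.4 ± 8.85 RPKM (SD, n = 3 each), with a log2 fold change of -0.22 ± 0.28 (adjusted p = 0.714, limma). Ccl7, another ligand, was at -0.33 ± 0.26. Cx3cl1, Csf1 and Il34, which act on other receptors of the lineage, were at 0.09 ± 0.25, 0.05 ± 0.22 and 0.29 ± 0.22. Among 6 receptors for chemokines and growth factors 0 were called and 0 had an unadjusted p under 0.05, the smallest p belonging to Csf2ra (-0.39 ± 0.25, limma adjusted p = 0.556).

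Itgam encodes CD11b, the alpha chain of the integrin Mac-1, which monocytes and neutrophils use to adhere and to take up opsonised particles. It stood at 56.03, 12.17 and 44.23 RPKM in the knockout and at 64.02, 30.20 and 38.85 RPKM in WT libraries. Knockout replicate 2 was the lowest of the 6 libraries and the other knockout libraries lay inside the wild-type range. Its log2 fold change was -0.42 ± 0.53 with a 95% interval from -1.64 to 0.81 (limma adjusted p = 0.711), and without knockout replicate 2 its sign turned, to 0.23 ± 0.31. Its partner chain Itgb2 followed the same order at the low end, with 113.84, 31.79 and 95.32 RPKM against 124.24, 58.82 and 66.08 RPKM (-0.16 ± 0.49, adjusted p = 0.883). Of 7 integrin chains and adhesion ligands 0 were called by limma and 0 had an unadjusted p under 0.05, the smallest p belonging to Vcam1 and Itga4 (-0.65 ± 0.36 and -0.56 ± 0.39, adjusted p = 0.556 and 0.565).

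Lyz2 encodes the lysozyme of macrophages, monocytes and neutrophils and was by far the most abundant member, the 10th of 12913 genes by mean RPKM. Its values were 3825.58, 833.22 and 2858.51 RPKM in the knockout and 3288.67, 1772.20 and 1821.52 RPKM in WT libraries. Both extremes were knockout libraries, so the wild-type range lay inside that of the knockout. For Lyz2 the log2 fold change was -0.07 ± 0.64 (limma adjusted p = 0.957), and it became 0.59 ± 0.52 without knockout replicate 2. Its interval, from -1.54 to 1.39, allows a level 2.90 times lower or 2.62 times higher, and so does not show that the level was alike.

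Lyz1, the lysozyme gene of Paneth cells that myeloid cells also express at a lower level, had the widest spread of all members. It was read at 53.37, 1.31 and 12.47 RPKM in the knockout, a 40.7-fold range, and at 18.73, 3.27 and 7.30 RPKM in WT libraries, a 5.73-fold range. The lowest value rests on 30 reads. For Lyz1 the log2 fold change was 0.42 ± 1.03 (limma adjusted p = 0.849), and it was 1.61 ± 0.74 without knockout replicate 2 and -0.67 ± 0.77 without knockout replicate 1. Lyz1 held 1.33%, 0.151% and 0.418% of the reads on the pair in the knockout and 0.545%, 0.177% and 0.384% in the wild type. Both replicates numbered 2 had the smallest shares, and the groups overlapped (exact permutation test, two-sided, p = 0.7).

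Chi3l3 encodes Ym1, a secreted chitinase-like lectin without chitinase activity that marks some monocytes and alternatively activated macrophages. It stood at 53.16, 6.86 and 18.03 RPKM in the knockout and at 23.18, 6.99 and 4.15 RPKM in WT libraries. It was the only member whose lowest library was not knockout replicate 2, and its groups overlapped. The log2 fold change was 1.01 ± 0.75 with a 95% interval from -0.70 to 2.72 (limma adjusted p = 0.571). It was 1.69 ± 0.69 without knockout replicate 2 (adjusted p = 0.623) and 0.29 ± 0.62 without knockout replicate 1. Chi3l1, a related chitinase-like protein, was likewise highest in knockout replicate 1, at 18.92 RPKM against 0.47 to 6.63 RPKM in the other 5 libraries. Of the 3 further family members in the table (Chi3l1, Chid1 and Ctbs) 0 were called by limma and 0 had an unadjusted p under 0.05, Chid1 and Ctbs standing at 0.15 ± 0.17 and -0.16 ± 0.27.

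**Figure D3:**
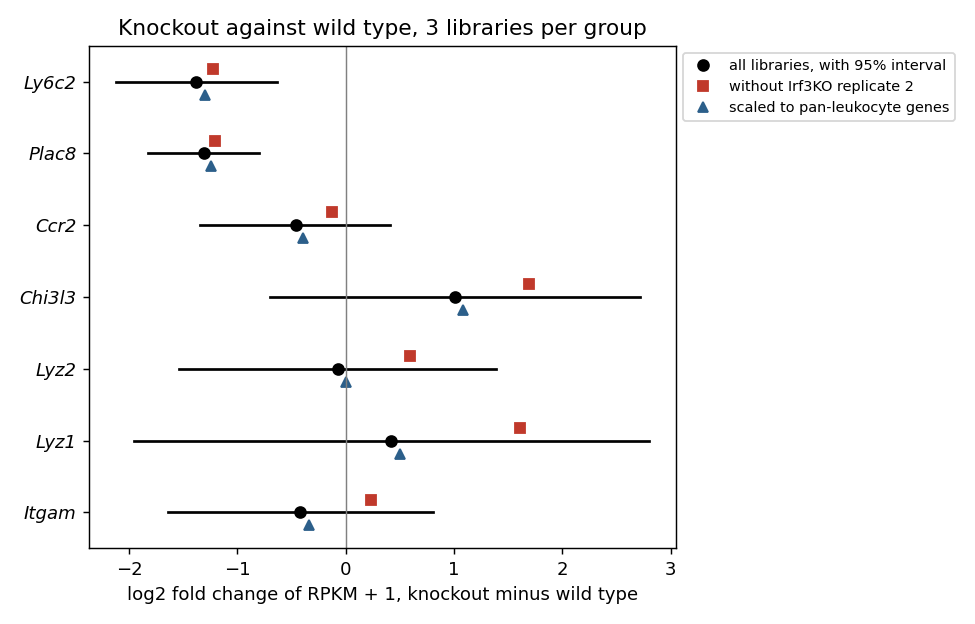
Log2 fold change of each member, knockout minus wild type, with its 95% interval from limma (black), without knockout replicate 2 (red squares) and after scaling every library to the pan-leukocyte genes (blue triangles). The intervals of Ly6c2 (-2.12 to -0.63) and Plac8 (-1.82 to -0.80) lie below 0, and the other 5 include it.

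Ordered by mean RPKM, wild-type tissue held Lyz2 (2294), Itgam (44.4), Plac8 (23.9), Ccr2 (23.8), Chi3l3 (11.4), Lyz1 (9.77) and Ly6c2 (8.35). In the knockout the order was Lyz2 (2506), Itgam (37.5), Chi3l3 (26.0), Lyz1 (22.4), Ccr2 (17.7), Plac8 (9.0) and Ly6c2 (2.63). Lyz2 was above every other member in each library. Among the other neighbours, the ranges were apart for Itgam and Plac8 in the wild type and for Plac8 and Ly6c2 in the knockout, and every other adjacent pair overlapped. Knockout replicate 2 was the lowest library for 6 of the 7 members, where it was the lowest for 52.3% of all genes tested. Wild-type replicate 1 was the highest for 4 members (24.3% of all genes) and knockout replicate 1 for the other 3 (16.7%).

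The members varied across the 6 libraries in 2 ways. Lyz2 and Itgam varied together (Pearson's r of log2(RPKM + 1) = 0.97 over 6 libraries), as did Lyz1 with Lyz2 (0.94) and Chi3l3 with Lyz1 (0.86). Ly6c2 went with Plac8 (0.89) and little with Lyz2 (0.29). Against the mean of the pan-leukocyte genes, r was 0.81 to 0.89 for Ccr2, Chi3l3, Lyz2, Lyz1 and Itgam, and 0.36 for Ly6c2 and 0.31 for Plac8. Without knockout replicate 2 these last values were 0.02 and -0.05. The libraries share depth and tissue makeup across genes, so these correlations are descriptions. They also pool both genotypes, so Ly6c2 and Plac8, each lower in every knockout library, correlate through that difference. Within the knockout, Ly6c2 was highest in replicate 3 (4.22 RPKM) and Plac8 in replicate 1 (10.74 RPKM). Within the wild type both had the same order of libraries.

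**Figure D4:**
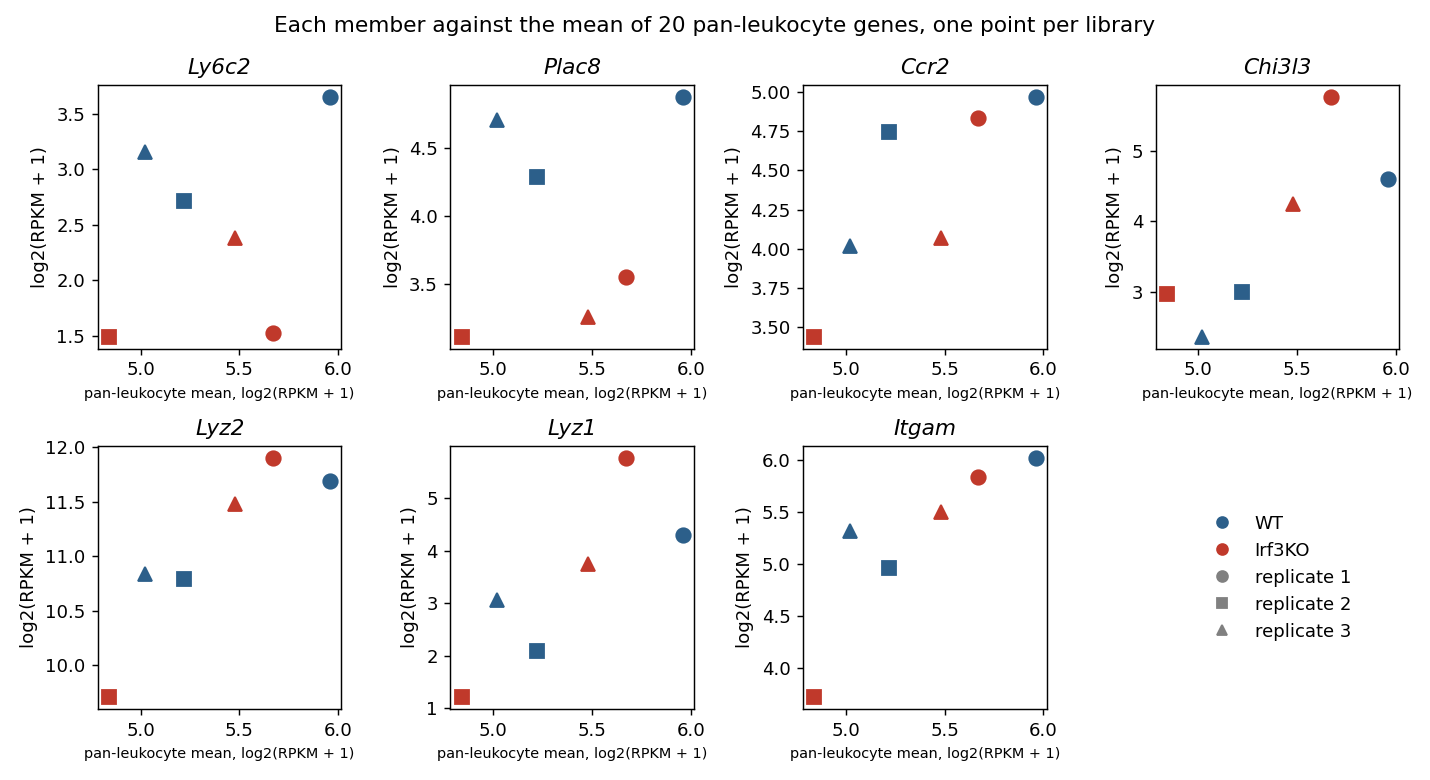
Level of each member against the mean of 20 pan-leukocyte genes, both as log2(RPKM + 1), with 1 point per library, red for knockout and blue for wild type. For Lyz2 and Itgam the libraries of both genotypes lie along 1 band. For Ly6c2 and Plac8 the knockout libraries lie below wild-type libraries of similar pan-leukocyte mean.

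Set against the pan-leukocyte mean of the same library, Ly6c2 and Plac8 were lower in the knockout. That mean joins genes that went different ways in knockout replicate 2. In that library Ptprc stood at 5.0 RPKM, its lowest of the 6 libraries, and Cyba at 473.64 RPKM, its highest. Ly6c2 lay -4.15, -3.35 and -3.09 from the pan-leukocyte mean in the knockout and -2.30, -2.51 and -1.87 in the wild type, on the log2(RPKM + 1) scale. The groups did not overlap, and their means differed by -1.30 (exact permutation test, two-sided, p = 0.1, the smallest it can give). Plac8 lay at -2.11, -1.72 and -2.21 against -1.09, -0.93 and -0.32, a difference of -1.24 with the same exact p of 0.1. For Ccr2 the difference was -0.39 (exact permutation p = 0.3), for Chi3l3 1.08 (p = 0.2), for Itgam -0.34 (p = 0.6), for Lyz1 0.50 (p = 0.8) and for Lyz2 0.00 (p = 1). Over these 7 comparisons none can pass an adjusted threshold of 0.05, given the smallest p the design allows. The pan-leukocyte mean itself differed by only -0.07 between the groups, so subtracting it could shift a difference between group means only slightly. The part of leukocyte number was not tested. In the fit across all genes after the same scaling, the log2 fold changes were -1.30 ± 0.40 for Ly6c2 and -1.24 ± 0.39 for Plac8 (limma adjusted p = 0.303 and 0.389).

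Ratios between members gave a less even picture. Of 21 ratios of RPKM between pairs of members, 6 did not overlap between the groups. The pairs share members and are not independent. No share over pairs of other genes was computed, so this count cannot be called high or low. The ratio of Ly6c2 to Itgam was 0.0334, 0.149 and 0.0954 in the knockout and 0.181, 0.184 and 0.204 in the wild type, all knockout values being lower. The ratio of Plac8 to Itgam was 0.192, 0.630 and 0.194 against 0.441, 0.613 and 0.644, so knockout replicate 2 lay among the wild-type libraries. The same held for Plac8 to Ccr2, at 0.390, 0.778 and 0.545 against 0.932, 0.718 and 1.64. Ly6c2 to Ccr2 overlapped as well, at 0.0679, 0.184 and 0.267 against 0.382, 0.216 and 0.519, here through knockout replicate 3. In the opposite direction, Lyz2 to Itgam was 68.3, 68.5 and 64.6 in the knockout and 51.4, 58.7 and 46.9 in the wild type, a narrow range for 2 genes whose own levels varied more than 4-fold among knockout libraries. Chi3l3 to Itgam was also higher in every knockout library, at 0.949, 0.564 and 0.408 against 0.362, 0.232 and 0.107.

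Other genes of classical monocytes gave no common direction, 12 having a log2 fold change below 0 and 7 above. Of 19 such genes 0 were called by limma, and 2 stood lower and 1 higher at an unadjusted p under 0.05. Over all genes tested, 8.4% had such a p in either direction. The median log2 fold change of the 19 was -0.17 (0.15 without knockout replicate 2). Ms4a4c, a membrane protein of the MS4A family, stood at 2.43, 0.60 and 2.36 RPKM in the knockout and at 13.19, 9.42 and 6.54 RPKM in WT libraries (-1.97 ± 0.35, limma adjusted p = 0.0754), with no overlap. S100a4, a calcium-binding protein, had 210 ± 26.2 against 120 ± 65.8 RPKM (SD, n = 3 each), a log2 fold change of 0.93 ± 0.36 (adjusted p = 0.556, limma), and wild-type replicate 1 overlapped the knockout. Fcgr1 had almost the same p and went the other way (-0.98 ± 0.38, limma adjusted p = 0.556). Of the 19 genes, 2 had all knockout libraries below the wild type (11.8% of all genes) and 0 had them above (6.61%). Of 7 genes of the patrolling, nonclassical monocyte 0 were called and the median was 0.16. Eno3, which muscle also expresses, and Pou2f2 had the smallest p (0.99 ± 0.38 and -0.59 ± 0.27, adjusted p = 0.556 each). Eno3 rose from 141.95 to 390.11 RPKM across wild-type replicates 1 to 3. The cardiomyocyte gene Ckm did likewise, from 91.72 to 296.28 RPKM. In this tissue the list and its median therefore cannot be read as patrolling monocytes alone. Of 7 transcription factors of the lineage 0 were called, and 1 had an unadjusted p under 0.05, Runx1, at 7.0, 4.95 and 6.72 against 12.03, 11.07 and 8.14 RPKM (-0.66 ± 0.22, adjusted p = 0.505). Cebpa was at 0.46 ± 0.35.

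Markers of other cells that can express the members were measured beside them. Of 20 lymphocyte and NK cell genes 5 are in the table and 4 were tested; the 5 summed to 5.65 to 18.8 RPKM in the knockout and 12.15 to 19.7 RPKM in WT libraries. None was called by limma, and 2 stood lower at an unadjusted p under 0.05, as 5.96% of all genes did. These were Klrd1 and Cd4 (-0.48 ± 0.18 and -0.40 ± 0.15, limma adjusted p = 0.556 each). Both had all knockout libraries below the wild type, as 11.8% of all genes had. Of 9 neutrophil genes tested from a list of 18, 0 were called; they summed to 66.7 to 86.0 RPKM in the knockout and 43.4 to 119.7 RPKM in WT libraries, and Mmp9 and Csf3r had the smallest p (1.52 ± 0.46 and -0.63 ± 0.34, adjusted p = 0.434 and 0.556). Mmp9 had an unadjusted limma p of 0.0106 and was higher in every knockout library than in any wild-type library. Of the 9 neutrophil genes, 6 were below 0 and 3 above, with a median log2 fold change of -0.23 (0.05 without knockout replicate 2). Of 7 dendritic cell genes tested from 12, 0 were called, with Clec9a at -0.48 ± 0.19 and Itgax at 0.61 ± 0.45, and they summed to 18.8 to 46.3 against 23.1 to 37.0 RPKM. Clec9a had an unadjusted p of 0.0356 and was lower in every knockout library. Of 19 macrophage genes 0 were called, and Mertk and Maf had the smallest p (-0.89 ± 0.38 and -0.58 ± 0.31, adjusted p = 0.556 each); their median was -0.29. Mertk had an unadjusted p of 0.0486 and was also lower in every knockout library. All 15 cardiomyocyte genes had a log2 fold change above 0, the direction opposite to that of Ly6c2 and Plac8. The median of the 15 was 0.57 (0.53 without knockout replicate 2) against -0.09 over all genes tested. Of the 15, 0 were called by limma and 2 had an unadjusted p under 0.05, as 8.4% of all genes had. None of the listed genes in the table was at 0 in any library. The part of these cells in the lower Ly6c2 and Plac8 was not tested.

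**Figure D5:**
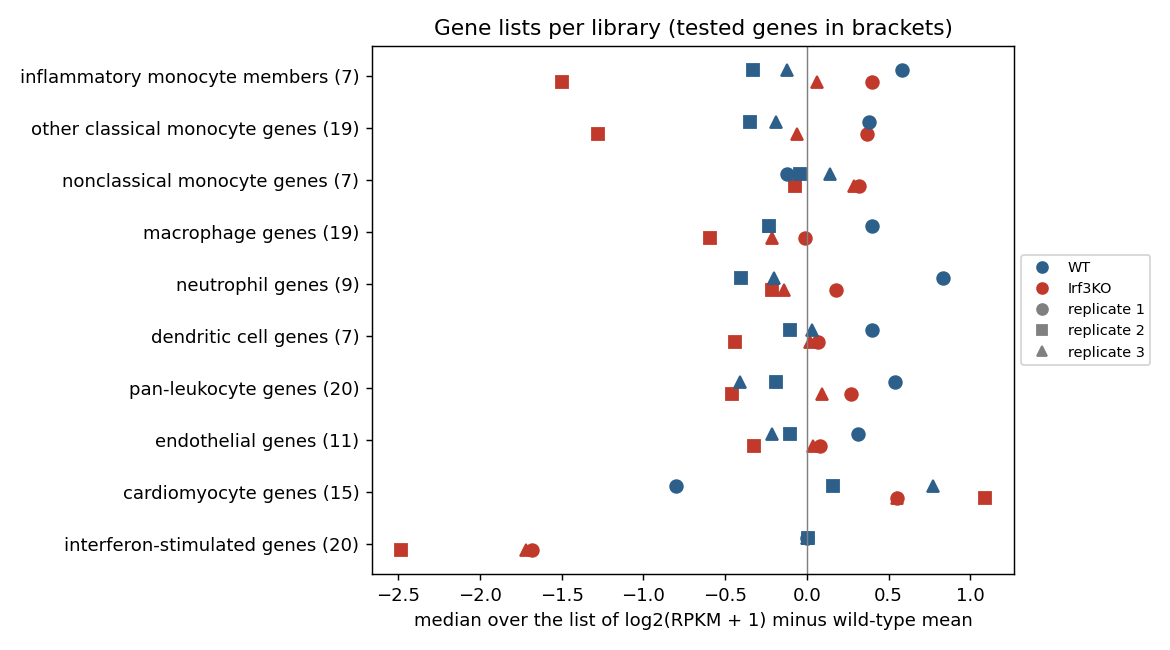
Median over each list of the difference from the wild-type mean, in log2(RPKM + 1), per library, red for knockout and blue for wild type, with the number of tested genes in brackets. Knockout replicate 2 is the lowest library for the 7 members (-1.50) and for other classical monocyte genes (-1.28). It is also lowest for the macrophage (-0.59), pan-leukocyte (-0.46), dendritic cell (-0.44), endothelial (-0.32) and interferon-stimulated (-2.48) lists, and for 52.3% of all genes tested. The nonclassical monocyte, neutrophil and cardiomyocyte lists are lowest in a wild-type library. Of the lists drawn only the interferon-stimulated one separates every knockout from every wild-type library.

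Among 20 interferon-stimulated genes, the median was -1.97 in log2 fold change. Of these, 13 fell by the test across all genes, where 0.356% of all genes fell. In 19 the knockout libraries all lay below the wild type, as in 11.8% of all genes. Isg15 and Ifit3 had the smallest p (-2.42 ± 0.21 and -2.70 ± 0.24, limma adjusted p = 0.00227 and 0.0029). Of 8696 genes averaging 5 RPKM or more, those most alike to Plac8 across the 6 libraries were H2-Q4, Zbp1 and Ccdc72 (Pearson's r = 0.993, 0.985 and 0.982), and those most alike to Ly6c2 were Gfpt2, Lgals3bp and Oas1a (0.972, 0.971 and 0.963). The number of genes above r = 0.95 was 9 for Ly6c2, 18 for Lyz1, 35 for Plac8, 37 for Chi3l3, 93 for Ccr2, 194 for Lyz2 and 211 for Itgam. Lyz2 was most like Plek, Il2rg and Ubl3 (0.996, 0.994 and 0.994), and Itgam most like Mcl1, Tgfbr2 and Hsd17b11 (0.997, 0.992 and 0.991). For Ccr2 these were Ssb, Dhrs1 and Bet1 (0.997, 0.989 and 0.985), and for Lyz1 Syf2, Eef1e1 and Twistnb (0.986, 0.973 and 0.963). Vbp1 was among those most like Chi3l3 (0.996). These correlations are descriptions over 6 points that pool both genotypes. A gene lower in every knockout library, as Plac8 and Ly6c2 were, is thereby alike to others lower there, Zbp1 among them. Likeness within a genotype was not tested.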

How the data were processed

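Total RNA of infarct tissue was sequenced. The table holds RPKM made by the authors and deposited with 2 decimals, with gene lengths that the authors deposited in bases (per the file headers). Upstream, STAR 2.3.0, HTSeq 0.6.0, edgeR 3.8.6, Picard 1.100 and SAMtools 0.1.18.0 were named, with build NCBIM37 (mm9), per the submitters' processing notes; the sources used here give no settings. In 5 lines a shifted gene name was repaired. Columns were matched to libraries by title.

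Depth was chosen so that low values of genes up to 900 bases fell on whole numbers of reads. Those with little rounding error, 133 (knockout replicate 3) to 326 (wild-type replicate 2) per library, all lay within 0.2 reads of a whole number. As the depth was fitted to such values, this is not an independent check. Rounding left errors of up to 1.98 reads for members, so no count model was used. Genes averaging 1 RPKM or more were fitted by limma 3.58.1 (R 4.3.3; trend, two-sided, genotype only) after a log2(RPKM + 1) transform, with Benjamini-Hochberg adjustment over 12913 genes. Such fold changes understate the change of low genes; ratios are of mean RPKM. On simulated data for knockout against wild type, over 12913 genes, the fit called 81 of the 100 simulated 4-fold changes. It called 25 of the 100 at 2-fold, and 6 genes falsely. The simulated noise was normal and independent for each gene and library, with its SD capped at 1. It held no outlying library like knockout replicate 2, so these counts may not carry over to the real libraries.

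The members, lists and tests were chosen with earlier results of these data known. Named were all members, Ly6c1, Irf3, and all recruitment ligands and Ly6 genes in the table. Also named were the 2 genes of smallest p in each other list, and the 3 genes most alike to each member. Itgb2, Chi3l1, Ptprc and Fcgr1 fall outside this rule and were named after their values were seen. Some genes that the rule selects are not reported here. Alternatives were other pseudocounts, filters, scalings, no trend, array weights, a replicate block, summed copies and leaving out each library. One, gene-by-gene array weights, was added after the output of the planned default array weights had been seen. For the pan-leukocyte and endothelial lists, tested genes numbered 20 and 11, 0 were called, and Coro1a (0.58 ± 0.33), Cyba (0.65 ± 0.38), Tek (-0.62 ± 0.38) and Cldn5 (0.35 ± 0.23) had the smallest p; of 15 cardiomyocyte genes 0 were called, and Ckm (1.69 ± 0.53) and Myh7 (1.44 ± 0.60) had it. Transcript sharing used GENCODE M21 and promoters RefSeq, both on GRCm38.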

Additional observations from a re-analysis of the deposited data

How the results depend on the processing

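Ly6c2 and Plac8 stayed lower in the knockout in every fit in which each copy was counted alone. Leaving out 1 library at a time gave log2 fold changes of -1.67 to -1.14 for Ly6c2 and -1.48 to -1.18 for Plac8 (limma adjusted p from 0.137 to 0.55 and from 0.0633 to 0.307), -0.82 to -0.13 for Ccr2, 0.29 to 1.69 for Chi3l3, -0.51 to 0.59 for Lyz2, -0.67 to 1.61 for Lyz1 and -0.83 to 0.23 for Itgam. Genes called then numbered 21 (without wild-type replicate 3) to 97 (without knockout replicate 2), with 26 without knockout replicate 3, 29 without wild-type replicate 1 and 30 without wild-type replicate 2, and members called 0 throughout. Relative to the pan-leukocyte genes, the differences without 1 library ran from -0.27 to 0.42 for Lyz2, -0.43 to 1.44 for Lyz1 and -0.58 to 0.06 for Itgam.

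With a mean of at least 5 RPKM required, 34 genes were called, fewer genes being tested. Median-of-ratios scaling put Lyz2 at 0.05. Summing copies gave 0.00 for the Ly6c pair and -0.07 for the Lyz pair; the sum of Chil3 and Chil4 was not run, Chil4 being not analysed here. Relative to the pan-leukocyte genes, Lyz2 was at 0.01 with a pseudocount of 0.1 and 0.00 with 0.5. The planned array weights, with limma's default REML method, stopped before convergence and gave knockout replicate 3, the deepest library, a weight of 496 against 0.0485 to 3.75 for the others. That fit called 8193 genes and all 7 members, with log2 fold changes of -0.41 for Ly6c2, -1.09 for Plac8, -0.62 for Ccr2, 1.23 for Chi3l3, 0.64 for Lyz2, 1.47 for Lyz1 and 0.45 for Itgam (limma adjusted p from 3.41e-06 for Plac8 to 0.00657 for Ly6c2). The gene-by-gene method was run only after this output had been seen. It converged but also weighted unevenly, from 0.103 (knockout replicate 2) to 6.36 (knockout replicate 3), and called 2960 genes and 3 members, Plac8 at -1.09, Chi3l3 at 1.42 and Lyz1 at 1.59 (adjusted p = 0.000329, 0.0163 and 0.0307), with Lyz2 at 0.65, Itgam at 0.43 and Ly6c2 at -0.59 (adjusted p = 0.0871, 0.114 and 0.0565). In both, 1 knockout library carries most of its group's weight. Where the cause of a change is not named, the cause was not tested.

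Knockout and wild-type libraries share replicate numbers, but same-numbered libraries did not deviate together (correlations 0.129, -0.098 and -0.102), so they share only a number; knockout and wild-type replicates 1 correlated best with each other, and the other libraries correlated best with a different number. With the replicate number as a block, 250 genes and 2 members were called, Ly6c2 at -1.38 and Plac8 at -1.31 (limma adjusted p = 0.00662 and 0.00544). Depth limits Ly6c2 and Lyz1, whose lowest libraries held 22 and 30 reads.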
